A study of Arabidopsis thaliana with 8 samples.

Results

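The *somi2* line was compared with wild-type Col-0 in rosette leaves of Arabidopsis thaliana, using 2 libraries of each, 4 of the 8 libraries of the series. The 4 libraries were taken by their labelled genotype, wild type or big, and every gene of the raw count table entered, of which 23916 were tested. The labels call the mutant big, and the methods of the study name the allele *somi2*: a single deleted base in exon 4 of BIG that creates a stop codon, found in an ethyl methanesulfonate screen for suppressors of the lesions of *mips1*. All plants had the Col-0 background, and the labels place them 1 week in vitro, 2 weeks in short days of 8 h light and 5 days in long days of 16 h light. The study's methods give slightly different durations for the same steps, and state that leaves of several plants were pooled for each RNA. The other 4 libraries, *mips1* and *mips1 somi2*, were grown in the same way. They lack the main enzyme of myo-inositol synthesis in leaves, and were used to estimate the spread and, in the closing comparison, to measure the *somi2* mutation in libraries other than the first 4.

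BIG is a very large protein of the calossin family, related to the animal UBR4 proteins, and its loss is known to alter auxin transport, organ growth, the clock and hormone responses. In the N-degron pathway, E3 ligases of the PRT6 type recognise the first residue of a protein and direct it to the proteasome, and the group VII ERF factors that switch on hypoxia genes are substrates. Leaves of a rosette grow first by division in young tissue, then by expansion, and the genes of division, of the stomatal lineage and of the shoot meristem are mainly expressed in young organs and the apex.

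BIG itself was lower in *somi2*. Its level in CPM (counts scaled to library size by TMM factors) was 113 and 132 in the Col-0 libraries and 57.2 and 62.1 in the *somi2* libraries. The groups did not overlap, and the log2 fold change was -1.04 ± 0.08 (SE, n = 2 and 2, adjusted p = 6.43e-07), a level 2.05-fold lower. The gene lies on the minus strand of chromosome 3 (430877 to 448680, TAIR10), and the main RefSeq transcript has 14 exons, of which exon 4 (441160 to 447200, 6041 bp) is the longest. Counts per gene do not show the deleted base, so the label was checked by the level only. In the study, sequencing first gave other candidate genes on this chromosome, and only BIG remained after linkage markers were used. Double mutants of *mips1* with other alleles of BIG also lacked lesions. The genes set aside were called too, as were 49.2% of all tested genes. XPO1B, an exportin, rose by 0.56 ± 0.08 on the log2 scale. MAPKKK6, a protein kinase, fell by 0.57 ± 0.08, and APC11, a subunit of the anaphase-promoting complex, by 0.79 ± 0.12. APC11 overlaps the more abundant AT3G05880 on the other strand (log2 fold change -0.99), and counts without strand cannot tell them apart. Of the 10 N-degron genes, 1 rose, 4 fell and 5 were not called. These shares, 10% up and 40% down, stood against 25.6% and 23.6% of all tested genes. The falls include BIG itself, the mutated gene, which has the lowest value of the list (-1.04). ZPR2, a small protein that is a target of the pathway, was at 0.143 and 0.141 CPM in Col-0 and 2.26 and 1.63 CPM in *somi2*, a log2 fold change of 3.77 ± 0.29 (adjusted p = 5.19e-07). PRT6, the E3 ligase that acts beside BIG, was at 35.3 and 47.1 CPM in Col-0 and 44.2 and 45.8 CPM in *somi2* and was not called (0.12 ± 0.12).

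A large share of the transcriptome differed. At an adjusted p under 0.05, 6129 genes (25.6% of those tested) were called up and 5646 (23.6%) down, with 2159 (9.03%) up by a log2 fold change of at least 1 and 601 (2.51%) down by as much. Together 49.2% of tested genes were called in either direction. With no overlap between the groups, 11770 genes (49.2%) were called, but groups of 2 were apart in 71.9% of all tested genes. The 25.6% up and 23.6% down are the background of every count of list members below. Libraries held 50123257 and 100017412 counts in Col-0 and 71671018 and 64466462 in *somi2*. With library size in place of TMM scaling the median of all genes moved from -0.002 to 0.27 on the log2 scale and 84.5% of calls were up instead of 52.1%, so every direction below is relative to TMM scaling. The Col-0 libraries stood further apart than those of *somi2*. Organelle transcripts were 2.67% of counts in Col-0 replicate 1 and 0.926% in replicate 2, an 18S ribosomal RNA gene 0.938% and 0.0303%, and 559 genes differed by over 2-fold between the Col-0 libraries against 130 between the *somi2* libraries. Without Col-0 replicate 1, 6178 genes were called up and 6176 down. Nothing in the labels says that replicates came from separate growth rounds, so the p-values measure the spread between these libraries.

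The shares called are given by level as a description. The filter kept a gene that was high enough in any of the 4 genotypes, so a gene low in Col-0 was tested mainly because another group was higher, and rises among low genes are partly fixed by this. Tested genes were split into 5 equal bins by mean CPM. In the lowest bin 28.1% were called up and 7.02% down, and in the highest 18.4% and 41.9%. Rises of at least 1 on the log2 scale made up 22.9% of the lowest bin and 1.69% of the highest. Among 838 tested genes with at most 3 counts in each Col-0 library, the limit of detection used here (0.0353 to 0.0716 CPM), 381 were called up with more than 3 counts in both *somi2* libraries. The reverse, at most 3 counts in each *somi2* library and called down from more than 3 in both Col-0 libraries, was found for 17 genes of 382. The same filter set which genes of both kinds were tested, and 377 of the 381 also had more than 3 counts in both *mips1 somi2* libraries, so the difference between these numbers is not a result. Calls were spread over the genome: the share called up was 25.1% to 26.9% on the 5 nuclear chromosomes, and 26.4% in the first 1 Mb of chromosome 3, which holds BIG.

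**Figure D1:**
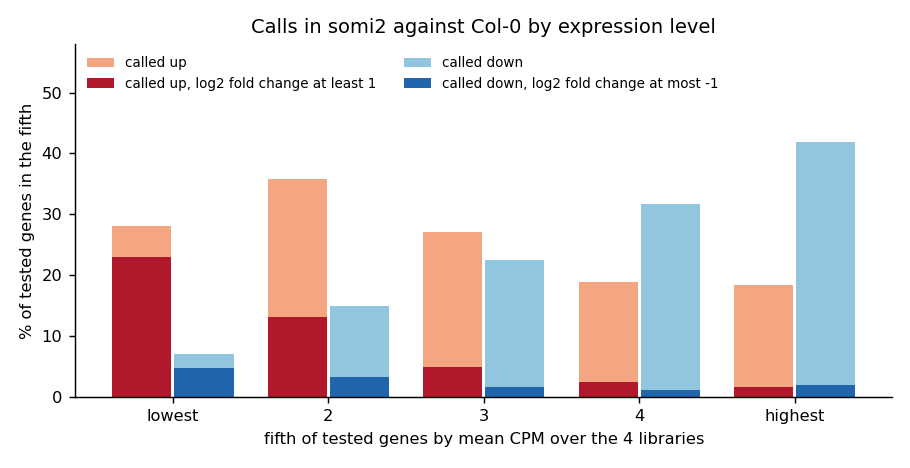
Share of tested genes (%) called up or down in *somi2* against Col-0, in 5 equal bins of mean CPM over the 4 libraries; dark bars are the part with a log2 fold change of 1 or more in size. Calls up with a large fold change fall from 22.9% in the lowest bin to 1.69% in the highest, while calls down rise from 7.02% to 41.9%.

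Markers of leaf were high in all 4 libraries, at a lower level in *somi2*, and markers of shoot meristem were higher in *somi2*. Summed over 4 leaf markers, the level was 47012 and 45332 CPM in Col-0 and 30616 and 29976 CPM in *somi2*, and all 4 fell (median -0.60). The 4 shoot meristem markers summed to 0.191 and 0.0824 CPM in Col-0 and 8.53 and 7.4 CPM in *somi2*. This sum came from STM and KNAT1, since the markers of the stem cell niche, WUS and CLV3, had 0 to 3 counts in each of these 4 libraries. The 6 root markers summed to 6.66 and 4.84 CPM against 57.2 and 59.6 CPM, which came mostly from 1 gene, BGLU23 (log2 fold change 3.43), while EXPA7, COBL9 and TIP2-3 had 0 to 3 counts in every Col-0 and *somi2* library. Of 5 flower markers tested, 1 rose and 2 fell, 20% and 40%, against 25.6% and 23.6% of all tested genes. The 6 flower markers measured summed to 4.08 and 3.87 CPM against 3.84 and 3.41 CPM, a sum in which AG went from 48 and 106 counts to 167 and 149, and SEP2 from 40 and 81 to 21 and 7. Each pollen marker had at most 1 count in a library. In pooled leaf RNA, more cells of a type and more RNA per cell cannot be told apart, and the part that apical or young tissue had in the results below was not tested.

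Genes of the shoot meristem and of organ boundaries had the highest median of the 39 lists. Of 14 tested, 9 rose (64.3%, against 25.6% of all genes) and none fell. The median log2 fold change was 2.45 against -0.002 over all genes. Of these 14, 4 had 0 to 3 counts in the Col-0 libraries together, and were tested mainly because another group was higher. The share, the median and its rank are therefore partly fixed by the filter, which also left out WUS and CLV3. STM, the KNOX homeobox gene that keeps meristem cells undifferentiated, had 1 count in each Col-0 library and 321 and 233 in the *somi2* libraries, a ratio of 254 with a counting interval of 69.9 to 2100. KNAT1, a KNOX gene of the stem, was at 0.119 and 0.0706 CPM in Col-0 and 4.06 and 3.84 CPM in *somi2* (5.47 ± 0.23, adjusted p = 3.21e-09). LOB, a boundary factor, had no count in Col-0 and 106 and 93 counts in *somi2*, at least 26.8-fold higher against a floor of 3 counts per library. The *somi2* libraries were close to each other in each of these genes, and the Col-0 libraries lay at or near the floor. The boundary NAC genes CUC2 (2.54 ± 0.37) and CUC3 (3.71 ± 0.32), the leaf-base regulator BOP1 and the KNOX genes KNAT2 (2.31 ± 0.27) and KNAT6 (2.37 ± 0.19) rose as well. ATH1, BOP2, CLV1, CUC1 and BRC1 were not called, with values between -0.74 and 1.21.

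Regulators of leaf growth were mostly higher as well. Among 27 tested, 17 rose and 4 fell, with a median of 0.94. Of these 27, 4 had 0 to 3 counts in the Col-0 libraries together, so the same limit of the filter holds. KLU, a cytochrome P450 that extends organ growth, had 1 count in each Col-0 library and 376 and 265 in *somi2*, a ratio of 294 (counting interval 80.9 to 2429). GRF5, a growth-regulating factor, had 0 and 3 counts against 234 and 220, a ratio of 139 (47.1 to 675), so that its Col-0 level rests on the 3 counts of replicate 2. Its partner GIF1, a coactivator that promotes cell number, was at 1.03 and 1.04 CPM in Col-0 and 14.8 and 14.4 CPM in *somi2*, or 14.2-fold higher (3.82 ± 0.11, adjusted p = 1.19e-10). All 9 GRF genes on the list rose, from GRF1 (0.69 ± 0.08) to GRF5. JAG, a factor of lamina outgrowth, had no count in Col-0 and 25 and 20 in *somi2*, at least 6.06-fold higher. ANT, an AP2 factor of organ size, rose 4.75-fold from 4.68 and 4.78 CPM to 21.5 and 23.5 CPM. The genes that fell were ARGOS, an auxin-induced growth gene, at 6.06 and 8.21 CPM against 2.57 CPM in each *somi2* library (-1.49 ± 0.15), and the CIN-type TCP genes TCP2, TCP3 and TCP24, which end division in the leaf, by 0.25 to 0.28. The calls of these TCP genes were lost without Col-0 replicate 2 or without *somi2* replicate 2, and TCP3, which overlaps AT1G53233 on the other strand (-0.23), was at 0.03 with library size only.

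**Figure D2:**
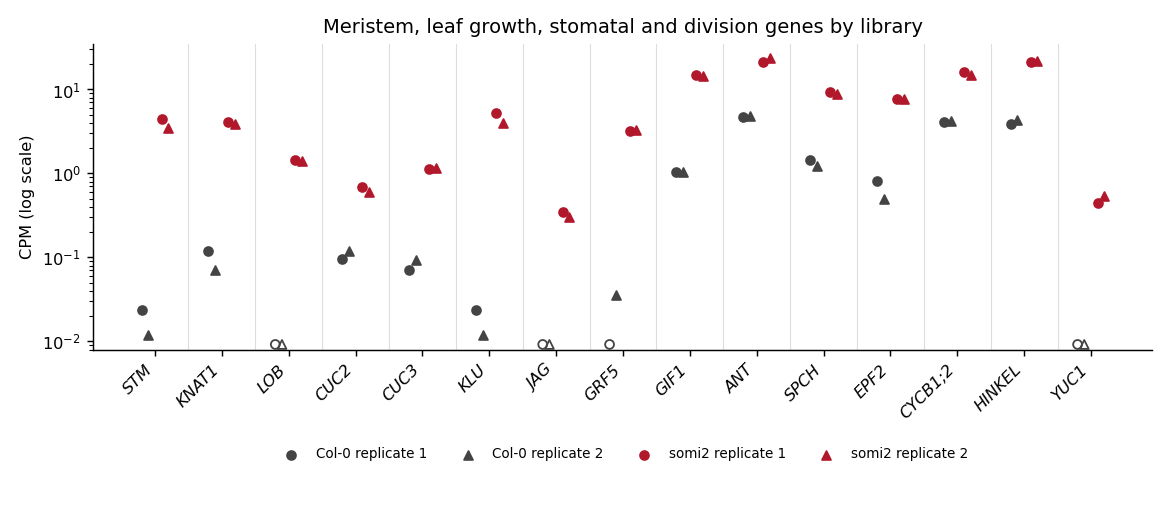
CPM (log axis) of 15 meristem, leaf growth, stomatal, division and auxin synthesis genes in each of the 4 libraries; each point is 1 library and open symbols at the bottom mark 0 counts. Both *somi2* points lie above both Col-0 points for every gene shown, with STM and KLU at 1 count in each Col-0 library.

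The stomatal lineage, in which protodermal cells divide asymmetrically to form guard cells, was higher in *somi2*. Of 15 genes, 14 rose and none fell (median 1.37). SPCH, the bHLH factor that starts the lineage, was at 1.43 and 1.21 CPM in Col-0 and 9.45 and 8.81 CPM in *somi2*, or 7.02-fold higher (2.81 ± 0.12, adjusted p = 3.56e-09). EPF2, a secreted peptide of early lineage cells, rose from 0.812 and 0.494 CPM to 7.69 CPM in both *somi2* libraries (3.64 ± 0.21). The polarity genes POLAR (3.24 ± 0.14) and BASL (3.09 ± 0.16) and the receptor-like gene TMM (2.63 ± 0.11) followed. Later factors rose less: MUTE, which ends the stem-cell divisions, by 1.84 ± 0.18 and FAMA, of the guard mother cell, by 0.29 ± 0.08. EPFL9, a peptide from the mesophyll, was at 17.5 and 13.3 CPM against 19.2 and 17.1 CPM and was not called.

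Most cell cycle genes were higher in *somi2*. The mitotic A and B cyclins counted 16 of 18 called up (median 1.32), the genes of spindle and cytokinesis 10 of 10 (median 1.85), DNA replication 10 of 12 (median 0.74) and the D cyclins, which drive entry into the cycle, 7 of 10, with 1 down. No gene of the first 3 of these lists fell. HINKEL, a kinesin of the phragmoplast, was at 3.89 and 4.35 CPM in Col-0 and 21.1 and 21.7 CPM in *somi2* (2.36 ± 0.10, adjusted p = 3.65e-09). CYCB2;1 rose 6.17-fold (2.63 ± 0.22), and CYCB1;2 went from 4.11 and 4.25 CPM to 16.2 and 14.9 CPM (1.89 ± 0.09). The S-phase genes changed less: MCM6, of the replicative helicase, rose from 8.83 and 10.3 CPM to 19.6 and 17.9 CPM (0.96 ± 0.09), and MCM5 by 0.76 ± 0.07. CYCD3;1, a D cyclin responsive to cytokinin, rose from 12.2 and 13 CPM to 36.2 and 37.4 CPM (1.54 ± 0.08), while CYCD2;1 fell by 0.34. Among the kinases and their inhibitors 8 of 20 rose and 5 fell, 40% and 25%, against 25.6% and 23.6% of all tested genes. The B-type kinases of mitosis all rose (CDKB1;1 by 2.01 ± 0.15), and CDKA;1, which acts at both transitions, was not called (-0.21 ± 0.08). The inhibitor KRP3 rose from 0.525 and 0.435 CPM to 2.93 and 3.13 CPM (2.68 ± 0.17), while KRP1, KRP6 and SMR1 fell by 0.44 to 0.52 on the log2 scale. SMR1 overlaps AT3G10527 on the other strand (-0.38), and the reads of both cannot be told apart.

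Promoters of 4 genes that moved are printed as the sequence of the 250 bases before the annotated start, on the gene strand. The starts are those of the gene models used for counting, and the letters those of the TAIR10.1 sequence. They show where a motif known for the regulation of each group lies. Capitals mark the motif on either strand. The mitosis-specific activator core (CNAACGG) is bound by MYB3R factors, the E2F site (TTTCCCGC) by factors of S phase, the G-box (CACGTG) by MYC2 and other bHLH or bZIP factors, and the evening element (AAAATATCT) by MYB-like clock factors. The windows are chr5:1861704-1861953 (minus strand) for CYCB1;2, chr2:3527501-3527750 (minus) for MCM5, chr2:14572780-14573029 (plus) for JAZ7 and chr1:25508389-25508638 (plus) for FKF1.
CYCB1;2: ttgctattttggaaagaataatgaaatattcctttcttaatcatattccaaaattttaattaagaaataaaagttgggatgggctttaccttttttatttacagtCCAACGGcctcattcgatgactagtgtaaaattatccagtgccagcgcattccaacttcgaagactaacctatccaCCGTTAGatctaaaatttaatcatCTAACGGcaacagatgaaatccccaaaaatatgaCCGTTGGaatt
MCM5: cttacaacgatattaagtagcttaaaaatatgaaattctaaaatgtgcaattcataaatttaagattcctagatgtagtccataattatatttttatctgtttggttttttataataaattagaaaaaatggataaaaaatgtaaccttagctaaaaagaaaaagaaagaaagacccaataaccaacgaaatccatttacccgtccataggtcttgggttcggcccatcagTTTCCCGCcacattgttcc
JAZ7: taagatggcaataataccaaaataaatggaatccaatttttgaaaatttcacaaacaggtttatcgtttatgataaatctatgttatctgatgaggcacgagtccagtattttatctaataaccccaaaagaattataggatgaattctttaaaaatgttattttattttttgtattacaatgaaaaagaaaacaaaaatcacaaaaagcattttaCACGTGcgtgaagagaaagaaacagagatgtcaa
FKF1: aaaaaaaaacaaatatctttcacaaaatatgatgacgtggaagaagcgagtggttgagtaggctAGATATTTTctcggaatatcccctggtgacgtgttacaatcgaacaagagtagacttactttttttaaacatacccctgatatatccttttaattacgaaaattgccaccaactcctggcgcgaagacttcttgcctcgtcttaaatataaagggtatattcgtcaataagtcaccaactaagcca
The activator core was found in 7 of 18 A and B cyclin promoters and 4 of 10 of the spindle and cytokinesis list, against 4.83% of 23775 promoters, and 4 times in that of CYCB1;2. The E2F site was in 4 of 12 replication promoters, against 0.623% of all. G-boxes were in 5 of 13 JAZ promoters, against 6.79%, but in 2 of 15 of jasmonate biosynthesis and 1 of 9 of the MYC branch. There were evening elements in 5 of 23 clock promoters, against 2.31%. A match describes these letters in this window and is not a measured site.

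Nuclear genes of the photosystems were lower in *somi2*, by small amounts. Of 43 genes of photosystem subunits and light-harvesting antennae, 40 fell (93%, against 23.6% of all genes) and none rose. Their median log2 fold change was -0.70 and the range -1.46 to -0.13. LHCB1.4, an antenna protein of photosystem II, was at 11168 and 9568 CPM in Col-0 and 3718 and 3824 CPM in *somi2*, or 2.75-fold lower (-1.46 ± 0.08, adjusted p = 2.1e-08). LHCB1.5 (-1.04 ± 0.07), PSAF, a photosystem I subunit (-0.97 ± 0.06), and LHCA2 (-0.90 ± 0.07) came next, and PSBO2, LHCB4.3 and PSBS were not called. LHCB1.5 overlaps AT2G08665 on the other strand (-1.04), and their reads cannot be told apart. The LHCB1 copies are near identical, so how reads were divided among them, or lost, is uncertain. In the Calvin cycle, 10 of 15 fell and none rose. RCA, the Rubisco activase, was at 7361 and 8086 CPM in Col-0 against 4593 and 4437 CPM in *somi2* (-0.77 ± 0.07), and RBCS1A, the main small subunit of Rubisco, fell by 0.41 ± 0.08. With library size only, the medians of both lists stayed below 0, at -0.42 and -0.10.

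Most genes of leaf senescence were lower. Of 9 tested, 6 fell and 1 rose. NAP, a NAC factor that promotes senescence, was at 52.2 and 43.1 CPM in Col-0 and 6.24 and 6.89 CPM in *somi2*, or 7.25-fold lower (-2.86 ± 0.10, adjusted p = 5.9e-10). DIN1, a dark-induced gene, fell by 1.90 ± 0.07, NAC092 by 1.77 ± 0.08 and NYC1, a chlorophyll b reductase, by 1.23 ± 0.07. WRKY53, a factor of early senescence and of defence, rose from 18.9 and 15 CPM to 36.4 and 36.7 CPM (1.12 ± 0.09). It overlaps AT4G23800 on the other strand, which went from 706 and 1475 counts to 4880 and 4204, and the reads of both cannot be told apart. SAG12 had no count in any of the 4 libraries.

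**Figure D3:**
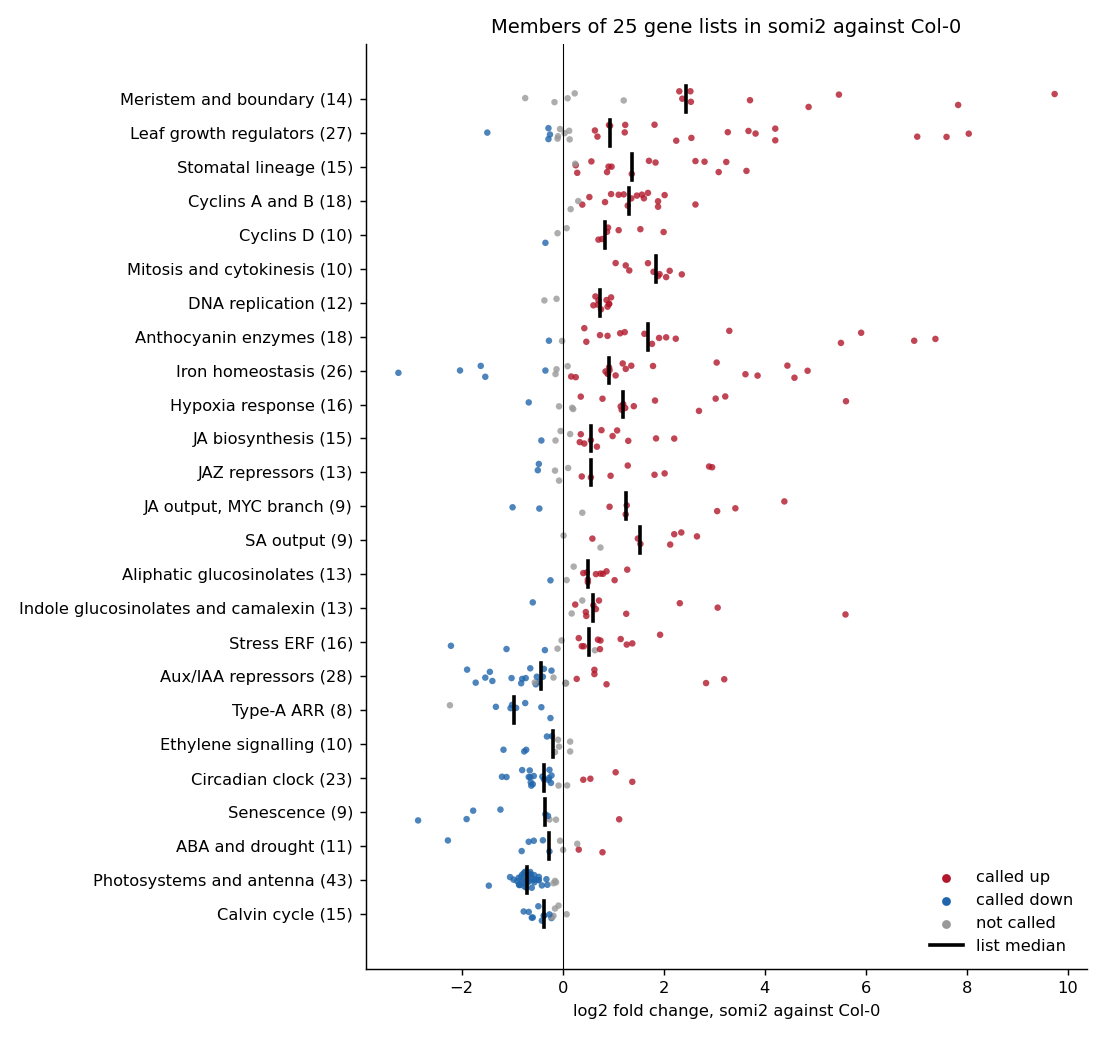
Log2 fold change, *somi2* against Col-0, of every tested member of 25 gene lists (number tested in brackets); each point is 1 gene, coloured by its call, and the black bar is the list median. Lists of meristem, growth and division lie to the right of 0 (medians 0.74 to 2.45), and the photosystem list lies to its left (median -0.70).

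Jasmonate genes were mostly higher. Jasmonate is made from linolenic acid in steps that begin in the chloroplast, binds COI1 as its isoleucine conjugate, and so removes JAZ repressors from MYC2. Of 15 biosynthesis genes, 11 rose and 1 fell (median 0.56). LOX2, a leaf lipoxygenase of the first step, was at 475 and 602 CPM in Col-0 and 1192 and 1090 CPM in *somi2* (1.08 ± 0.11, adjusted p = 9.52e-06). The cyclases AOC3 (2.21 ± 0.15) and AOC1 (1.85 ± 0.11) rose most, and FAD7, which makes the precursor, fell by 0.42 ± 0.07. Among 13 JAZ genes 8 rose and 2 fell. JAZ7, whose promoter is printed above, was at 0.406 and 0.271 CPM in Col-0 and 2.37 and 2.4 CPM in *somi2*, or 7.45-fold higher (2.90 ± 0.19), and JAZ5 (2.02 ± 0.09) and JAZ10 (1.82 ± 0.10) were next. JAZ6 and JAZ11 fell by 0.47 and 0.49. The receptor COI1 fell by 0.42 ± 0.06 and MYC2 rose by 0.68 ± 0.07, with 6 of 9 in that list not called. Both overlap a gene on the other strand with a like change, AT2G39930 (-0.47) for COI1 and AT1G32630 (0.65) for MYC2, which cannot be told apart from them.

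Most genes of both output branches of the hormone were higher. In the MYC branch, of wounding and herbivory, 6 of 9 rose and 2 fell. VSP1, a vegetative storage protein, was at 2.24 and 2.88 CPM in Col-0 and 57.0 and 53.0 CPM in *somi2*, or 20.9-fold higher (4.39 ± 0.10, adjusted p = 2.7e-11). VSP2 was 10.7-fold and JAL35, a jacalin-type lectin, 8.35-fold higher. In the ERF branch, 5 of 8 rose and 1 fell. PR4 went from 33.6 and 36.5 CPM to 100 and 99.0 CPM (1.51 ± 0.07), while ORA59, the factor of this branch, was at 6.47 and 6.49 CPM against 6.29 and 5.82 CPM and was not called. Genes that inactivate jasmonate were divided, with 4 up and 4 down of 9. AT5G05600, annotated as a 2-oxoglutarate-dependent oxygenase, rose by 0.98 ± 0.11, and AT2G38240, annotated likewise, and the sulfotransferase ST2A fell by 1.14 ± 0.14 and 1.38 ± 0.24.

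For salicylic acid, output genes rose while most synthesis genes were not called. Of 9 output genes, 7 rose and none fell. PR1, the usual marker of the pathway, was at 1.03 and 1.06 CPM in Col-0 and 7.37 and 5.85 CPM in *somi2*, or 6.32-fold higher (2.66 ± 0.13, adjusted p = 9.41e-09), and PR2, a glucanase, and PR5 rose by 2.13 ± 0.09 and 2.21 ± 0.10. WRKY70 was at 120 and 121 CPM against 125 and 119 CPM (0.02 ± 0.07). In the synthesis and signalling list, 6 of 20 rose and none fell, and the 30% up is close to the 25.6% of all tested genes. ICS1, the enzyme that makes the precursor isochorismate, rose from 7.45 and 8.61 CPM to 11.6 and 11.2 CPM (0.50 ± 0.09). The hydroxylases DMR6 (1.02 ± 0.07) and DLO1 (1.65 ± 0.17), which remove salicylic acid, rose more. NPR1, NPR3 and NPR4, the receptors, were not called (-0.13 to -0.01).

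Glucosinolates, the sulfur-containing defence compounds of the Brassicaceae, had 10 of 13 aliphatic and 10 of 13 indole and camalexin genes up, with 1 down in each. CYP79F1, of the aliphatic core pathway, went from 82.9 and 107 CPM to 235 and 226 CPM (1.28 ± 0.11). MAM1, of chain elongation, rose by 1.03 ± 0.11, whereas MYB28, a main activator of the branch, fell by 0.24 ± 0.07, a call that was lost without either *somi2* library and turned to 0.03 with library size only. CYP79B2, which makes indole-3-acetaldoxime from tryptophan, was at 12.9 and 14.7 CPM in Col-0 and 68.9 and 69.1 CPM in *somi2*, or 4.98-fold higher (2.32 ± 0.09, adjusted p = 2.45e-09). CYP71A13, of camalexin synthesis, rose from 2.77 and 1.71 CPM to 17.2 and 18.5 CPM (3.07 ± 0.18), but it overlaps AT2G30766 on the other strand, which had more counts in every library and a log2 fold change of 3.05, so the reads of both cannot be told apart. The last step, PAD3, was not called (0.39 ± 0.18). MYB34, an activator of indole glucosinolates, fell by 0.59 ± 0.06. Of 16 stress-related ERF genes, 10 rose and 3 fell. ERF11 rose by 1.93 ± 0.14 and ERF105 by 1.38 ± 0.10, while the cold-response factors CBF1 and CBF3 fell by 1.11 ± 0.18 and 2.21 ± 0.13.

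Genes of anthocyanin synthesis were higher, up to the last steps of the pathway. Of 18 enzyme genes, 16 rose and 1 fell (median 1.69). The late enzymes changed most: DFR, dihydroflavonol reductase, was at 0.382 and 0.424 CPM in Col-0 and 26.2 and 23.3 CPM in *somi2*, or 60.2-fold higher (5.91 ± 0.13, adjusted p = 1.78e-11). LDOX, the anthocyanidin synthase, rose 45.7-fold, and the decorating enzymes UGT79B1 and 5MAT, with 1 to 7 counts in a Col-0 library and 456 to 569 in a *somi2* library, rose by 7.38 ± 0.22 and 6.96 ± 0.24. Without Col-0 replicate 2 the log2 fold changes of LDOX, UGT79B1 and 5MAT were 6.24, 8.05 and 8.28. Earlier steps shared with flavonols changed less, with CHS at 2.05 ± 0.08 and CHI at 1.23 ± 0.10. At the entry of phenylpropanoids, PAL1 was not called (-0.01 ± 0.09), and PAL2 was at 79.9 and 96.9 CPM against 73.3 and 73.0 CPM (-0.27 ± 0.10, adjusted p = 0.032), a call that was lost without any of Col-0 replicate 2, *somi2* replicate 1 or *somi2* replicate 2 (adjusted p 0.128 to 0.196).

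The regulators of the pathway were divided. Of 16 regulators 9 rose and 5 fell. Of the 16, 3 had 0 to 3 counts in the Col-0 libraries together and were tested mainly because another group was higher. TT8, a bHLH partner in the activating complex, went from 0.0955 and 0.0824 CPM to 2.24 and 1.69 CPM (4.48 ± 0.28), and MYB75, the main MYB activator of leaves, from 1.31 and 1.13 CPM to 5.82 and 5.71 CPM (2.26 ± 0.14). MYB113 had no count in Col-0 and 53 and 42 in *somi2*, at least 12.8-fold higher. MYBL2, a repressor, fell from 174 and 165 CPM to 67.5 and 66.5 CPM (-1.34 ± 0.07, adjusted p = 2.51e-08). CPC, another repressor, rose by 1.31 ± 0.20. The nitrogen-linked repressors LBD37, LBD38 and LBD39 and the WD40 protein TTG1 fell by 0.25 to 0.43.

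Genes induced by iron deficiency were higher and most ferritin genes lower. Plants short of iron induce the clade Ib bHLH factors, and ferritins hold iron when it is ample. Of 26 tested, 18 rose and 5 fell. BHLH39 was at 0.501 and 0.788 CPM in Col-0 and 20.4 and 18.9 CPM in *somi2*, or 28.8-fold higher (4.85 ± 0.17, adjusted p = 7.66e-10). BHLH38 rose by 4.59 ± 0.12 and BHLH100 by 4.45 ± 0.12. BHLH38 overlaps AT3G56960 on the other strand, which had 423 and 708 counts in Col-0 and 1946 and 1739 in *somi2*, and counts did not use strand. AT1G47395, AT1G47400 and AT2G30766, annotated as uncharacterized proteins, rose by 3.86, 3.62 and 3.05 on the log2 scale. The iron sensor BTS went from 50.6 and 62.2 CPM to 127 and 130 CPM (1.19 ± 0.09) and OPT3, a phloem transporter, from 64.0 and 79.8 to 150 and 149 CPM. Among the ferritins, FER1 was at 114 and 122 CPM in Col-0 and 28.9 and 29.1 CPM in *somi2*, or 4.08-fold lower (-2.03 ± 0.07), FER4 fell by 1.62 ± 0.09 and FER3 by 0.34 ± 0.07, while FER2, the ferritin of seeds, rose by 1.25 ± 0.28 at under 1 CPM and overlaps AT3G11040 (0.63). NAS3, a nicotianamine synthase of iron-replete leaves, fell most, from 5.25 and 7.12 CPM to 0.704 and 0.605 CPM (-3.25 ± 0.17, adjusted p = 2.19e-08), and YSL1, a transporter of iron-nicotianamine, fell by 1.53 ± 0.08. The genes of root uptake were low in these leaves. FIT was not called (-0.12 ± 0.15) and IRT1 had 0 to 4 counts in a library.

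**Figure D4:**
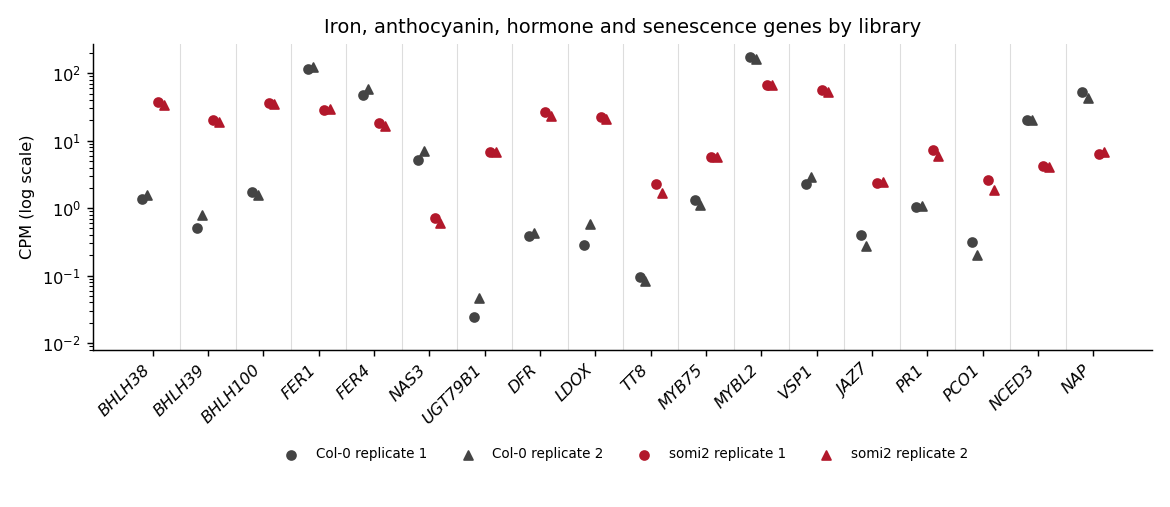
CPM (log axis) of 18 iron, anthocyanin, hormone, hypoxia and senescence genes in each of the 4 libraries; each point is 1 library. FER1, FER4, NAS3, MYBL2, NCED3 and NAP lie lower in both *somi2* libraries and the other 12 genes lie higher, with no overlap between the groups.

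Hypoxia-response genes rose in 12 of 16 cases and fell in 1 (median 1.19). PCO1, a cysteine oxidase that feeds substrates to the N-degron pathway, was at 0.31 and 0.2 CPM in Col-0 and 2.65 and 1.86 CPM in *somi2*, or 9.35-fold higher (3.22 ± 0.28). PCO2, with 1 count in each Col-0 library against 67 and 51, had a ratio of 54 (counting interval 14.6 to 451). LBD41 rose by 1.83 ± 0.12 and ADH1, alcohol dehydrogenase, by 1.41 ± 0.10. SUS1, a sucrose synthase, fell from 33.0 and 44.7 CPM to 25.2 and 24 CPM. Of the group VII ERF genes, RAP2.2 was not called (0.09 ± 0.08) and RAP2.3 fell by 0.36 ± 0.07. RAP2.12 was at 99.3 and 111 CPM against 90.5 and 85.4 CPM (-0.26 ± 0.08, adjusted p = 0.0122, 0.01 with library size only). Its value was -0.18 without Col-0 replicate 2 and -0.22 without *somi2* replicate 2. ACO1, counted both here and with ethylene synthesis, rose 8.18-fold, from 1.65 and 1.53 CPM to 13.8 and 12 CPM (3.03 ± 0.12, adjusted p = 1.67e-09).

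Ethylene synthesis was divided, with 4 of 11 genes up and 4 down, 36.4% each, against 25.6% and 23.6% of all tested genes. The synthases ACS4, ACS5 and ACS8 fell by 1.84 ± 0.12, 2.03 ± 0.23 and 2.14 ± 0.21, while ACS6, a stress-regulated synthase, rose by 0.63 ± 0.07. In signalling, 5 of 10 genes fell and none rose, with a median of -0.18 that was 0.09 with library size only. The F-box genes EBF1 and EBF2, which are induced by ethylene and remove EIN3, fell by 0.76 ± 0.07 and 1.17 ± 0.07, the latter from 173 and 186 CPM to 79.5 and 79.6 CPM. EBF2 overlaps AT5G25340 on the other strand (-1.15), from which its reads cannot be told apart.

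Most of the auxin-response repressors were lower, and genes of auxin synthesis and transport were divided. Of 28 Aux/IAA repressors, most of them induced by auxin, 16 fell and 6 rose (median -0.43). IAA6 was at 16.6 and 15 CPM in Col-0 and 4.62 and 3.9 CPM in *somi2* (-1.89 ± 0.12, adjusted p = 9.35e-08), with IAA29 (-1.72 ± 0.09), IAA5 and IAA19 close to it. Those that rose included IAA20 by 2.84 ± 0.59, IAA32 by 0.87 ± 0.14, which cannot be told apart from AT2G01210 on the other strand (0.88), and IAA27, from 20.0 and 22.1 CPM to 32.4 and 33.0 CPM. Of the synthesis and conjugation genes, 8 of 15 rose and 5 fell. YUC1, a flavin monooxygenase of auxin synthesis in young organs, had no count in Col-0 and 32 and 36 in *somi2*, at least 9.22-fold higher, and YUC4 rose by 4.34 ± 0.38. The related YUC8 and YUC9, which are induced by warmth and shade, fell by 2.50 ± 0.20 and 2.85 ± 0.27. Among 15 transport genes, 3 rose and 7 fell, 20% and 46.7%, against 25.6% and 23.6% of all tested genes. LAX2, an auxin influx carrier, was at 12 CPM in both Col-0 libraries and 20.9 and 20.8 CPM in *somi2* (0.79 ± 0.08), whereas the efflux carriers PIN7 (-0.57 ± 0.07) and ABCB19 (-0.48 ± 0.08) fell. The transport median of -0.23 was 0.04 with library size only.

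The type-A response regulators, which are induced by cytokinin and dampen its signal, fell in 7 of 8 cases. ARR6 was at 54.7 and 44.4 CPM in Col-0 and 19.9 and 19.7 CPM in *somi2* (-1.32 ± 0.09, adjusted p = 1.9e-07), followed by ARR7 (-1.03 ± 0.09), ARR16 (-1.0 ± 0.09) and ARR4 (-0.92 ± 0.06). ARR8 was not called: Col-0 replicate 1 had 268 CPM and replicate 2 had 30.3 CPM, against 28.9 and 34.2 CPM in *somi2*. It overlaps a transcript of the other strand, AT2G09250, which had 9965 counts in Col-0 replicate 1 and 401 in replicate 2. For gibberellin, 7 of 15 genes fell and 3 rose, 46.7% and 20%, against 23.6% and 25.6% of all tested genes. GA20OX1, a biosynthesis enzyme, fell by 0.82 ± 0.13, GID1C, a receptor, by 0.71 ± 0.07 and the DELLA genes GAI and RGL1 by 0.45 and 0.49, while GA3OX1 rose by 0.66 ± 0.10. Of 11 abscisic acid and drought genes, 6 fell and 2 rose, with a median of -0.26 that was 0.02 with library size only. NCED3, the limiting enzyme of abscisic acid synthesis under drought, was at 20.4 and 20.1 CPM against 4.26 and 4.1 CPM, or 4.83-fold lower (-2.27 ± 0.08, adjusted p = 1.36e-09).

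Most clock genes were lower. The clock is a loop in which the morning factors CCA1 and LHY repress evening genes. Of 23 genes 17 fell and 4 rose, and the 4 that rose, LHY, CCA1, RVE8 and RVE1, encode MYB-like factors with a peak near dawn. LHY was at 14.7 and 15.9 CPM in Col-0 and 40.2 and 39.4 CPM in *somi2* (1.38 ± 0.08, adjusted p = 4.32e-08), and CCA1 rose by 0.55 ± 0.06. ELF4, of the evening complex, fell from 22.0 and 21.0 CPM to 9.41 and 9.3 CPM (-1.20 ± 0.07), and FKF1, a blue-light receptor with an evening element in the promoter printed above, from 39.6 CPM in both Col-0 libraries to 17.8 and 18.9 CPM (-1.11 ± 0.06). PRR9, PRR7 and PRR5, the day-phased repressors, fell by 0.80, 0.67 and 0.65. The related MYB-like gene RVE4 fell by 0.57 ± 0.07, and LUX and BOA were not called. The hour of harvest is not given in the sources used here, so the part that a difference in harvest time had in these values was not tested.

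Of 21 flowering genes, 6 rose and 6 fell, 28.6% each, close to the 25.6% and 23.6% of all tested genes. SOC1, a floral integrator, fell from 59.5 and 59.3 CPM to 28 and 24.8 CPM (-1.17 ± 0.07), SPL4 by 1.26 ± 0.09 and MAF5, a relative of FLC, by 2.29 ± 0.22. AGL24 rose by 0.66 ± 0.07, and FT was low in all 4 libraries (0.454 to 0.671 CPM) and not called. In cellulose synthesis 3 of 10 rose and 3 fell, 30% each and close to the shares of all genes, with CESA7 and CESA8 of secondary walls up by 0.70 ± 0.15 and 0.77 ± 0.14, and COB, of primary walls, down by 0.54 ± 0.07. CESA8 overlaps AT4G18770 on the other strand (0.57), and their reads cannot be told apart.

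Outside the lists, the largest rises were of genes without a count in Col-0. AT5G01080, annotated as a beta-galactosidase-related protein, had 1176 and 1096 counts in *somi2*, at least 307-fold higher. It had 0 to 1 counts in the *mips1* and the *mips1 somi2* libraries too, and was the only gene of 381 that was up from the floor in *somi2* and at most at 3 counts in both *mips1 somi2* libraries. A short stretch of chromosome 4 held 5 of the 10 largest rises. From AT4G22475 to AT4G22520 (11844242 to 11858970), 9 of the annotated genes were called up, most of them of the lipid-transfer and seed storage 2S albumin family. AT4G22505 had no count in Col-0 and 1282 and 986 in *somi2*, at least 305-fold higher, and AT4G22495, which overlaps it on the other strand, 1272 and 975. AT4G22513 and AT4G22510, at least 165-fold and 154-fold higher, overlap as well, as do AT4G22517 and AT4G22510, and AT4G22475 and AT4G22485. Counts did not use strand, so the genes of such a pair cannot be told apart. The numbers of genes given for this stretch are therefore not numbers of separate rises. AT4G22470, before the stretch, changed far less and fell by 0.93. At the other end AT4G22530 rose by 0.97, but AT4G22520 lies within it on the other strand, so their reads cannot be told apart. Other genes at 0 in Col-0 were AT3G05727 (549 and 579 counts in *somi2*), CDEF1, a cutin-degrading lipase (326 and 342), AT1G29270 (303 and 282) and AT5G01870, a lipid-transfer protein (178 and 197).

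The largest falls were smaller. NEET, an iron-sulfur cluster protein, was at 121 and 107 CPM in Col-0 and 8.56 and 9.28 CPM in *somi2*, or 12.8-fold lower (-3.68 ± 0.09, adjusted p = 2.69e-11). AGP3, an arabinogalactan protein, fell 11.7-fold from 3.32 and 2.53 CPM to 0.262 and 0.227 CPM, and CER4, the fatty acyl-CoA reductase of wax alcohols, 9-fold from 17.8 and 19.7 CPM to 2.08 and 2.09 CPM. AT3G21330, a bHLH factor, AT2G21220, a SAUR-like auxin-responsive protein, the noncoding AT5G02865, AT3G49160, of the pyruvate kinase family, AT1G11740, an ankyrin repeat protein, ATGA2OX1, which inactivates gibberellin, and AT4G15710, a cystatin-like protein, fell by 2.85 to 3.13. Without *somi2* replicate 1 the value of ATGA2OX1 was -3.62.

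The same mutation was also measured in the *mips1* background, as *mips1 somi2* against *mips1*, in the 4 other libraries, which share the fitted spread and the filter with the first comparison but none of its values. There 9350 genes (39.1%) were called up and 9313 (38.9%) down, and BIG fell by a like amount, from 205 and 212 CPM to 93.4 and 89.9 CPM (-1.19 ± 0.08), with no difference called between the backgrounds (-0.15 ± 0.11, adjusted p = 0.271). Across all genes, which are not independent of each other, Pearson's r of the log2 fold changes was 0.37 and Spearman's 0.28. Of the 2159 genes up by at least 1 in *somi2* against Col-0, 1491 (69.1%) were up and 501 (23.2%) down in the *mips1* background. Of the 601 down by as much, 341 (56.7%) were down and 135 (22.5%) up. The difference between the 2 effects, tested as an interaction, was called for 62.1% of all genes, and opposite calls made up 12.8% of all genes.

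Lists of growth, division and stomata had medians above 0 in both backgrounds. No gene of the meristem, stomatal, replication or mitosis lists had opposite calls, and 1 A or B cyclin and 2 leaf growth genes had. The list medians in *mips1* were 3.33 for meristem and boundary genes, 1.96 for leaf growth, 2.52 for the stomatal lineage, 2.82 for A and B cyclins and 3.32 for spindle and cytokinesis. The effect on HINKEL was larger by 1.80 ± 0.15 on the log2 scale in *mips1*, and that on CYCB2;1 by 1.56 ± 0.34. STM and KLU rose by 8.33 and 9.16 in *mips1*, with no interaction called (0.49 and 1.11). Anthocyanin enzymes (median 2.21), the clade Ib bHLH genes (BHLH39 by 2.54) and the ferritin FER1 (-2.22) moved in the direction seen against Col-0. The iron list as a whole did not keep its median, which was 0.91 against Col-0 and 0.02 in *mips1*. There 11 of its 26 genes rose and 10 fell, with 4 opposite calls.

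Photosynthesis and salicylic acid output genes, and most or part of several other lists, went in the opposite direction. All 40 photosystem genes called down in Col-0 were called up in *mips1* (median 0.84), and so were the 10 Calvin cycle genes. All 7 salicylic acid output genes that rose in Col-0 fell in *mips1* (list median -2.84), and the effect on PR1 differed between the backgrounds by -6.81 ± 0.16 on the log2 scale. All 10 stress ERF genes that rose in Col-0 fell in *mips1*, where all 16 of the list fell (median -2.37). The 5 genes of the jasmonate ERF branch that rose in Col-0 fell too (list median -1.95). In auxin transport 7 of 15 genes had opposite calls, with medians of -0.23 in Col-0 and 1.00 in *mips1*. Of the indole glucosinolate and camalexin genes 9, and of the JAZ genes 6 had opposite calls. Senescence genes mostly kept their direction, with 1 opposite call. Of 9, 6 fell against Col-0 and all 9 fell in *mips1*, with medians of -0.34 and -2.94. The *mips1* plants carry leaf lesions under these conditions and *mips1 somi2* plants do not, as the study describes, so the 2 contrasts also compare leaves of different states.

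**Figure D5:**
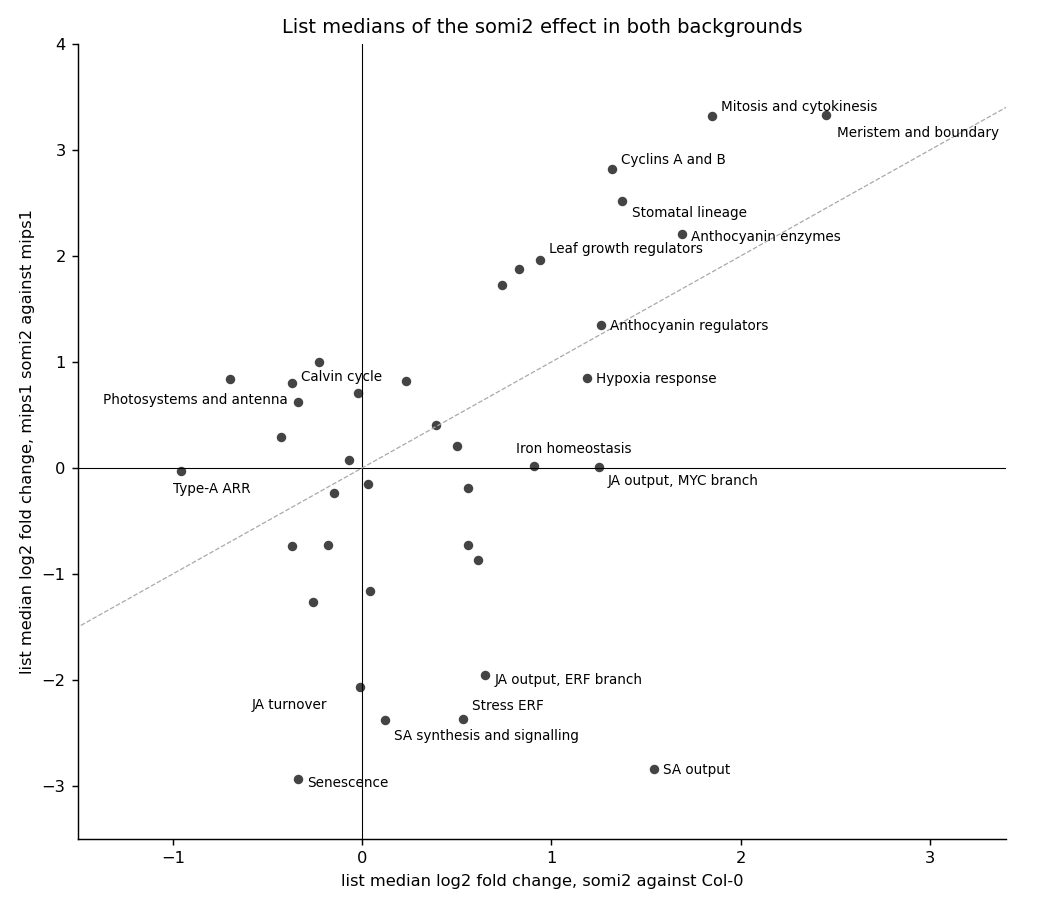
Median log2 fold change of 38 gene lists in *somi2* against Col-0 (x axis) and in *mips1 somi2* against *mips1* (y axis); each point is 1 list and the dashed line marks equal values. Meristem, division and stomatal lists lie above 0 on both axes, while salicylic acid output lies at 1.54 and -2.84 and the photosystem list at -0.70 and 0.84.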

How the data were processed

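Raw counts per gene for 8 RNA-seq libraries, 2 of each of 4 genotypes, were used as deposited by the authors. Per the file headers and the submitters' processing notes, reads were trimmed with Trimmomatic, aligned to TAIR10 with STAR 2.7.0d and counted with featureCounts 1.6.3 over exons of Araport11 gene models. Counting allowed multimapping reads and reads overlapping several genes, required a mapping quality of at least 10, and did not use strand. Overlapping genes and antisense pairs can therefore share reads. The quality limit may have removed reads that map to several places, so the counting of near-identical paralogs is uncertain. The other deposited column used, a gene length, only described genes. The authors' normalised counts, and their tables of fold changes and p-values, were not used.

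Counts were analysed in R 4.3.3 with edgeR 4.0.16 (limma 3.58.1): TMM factors, filterByExpr by genotype, and the robust quasi-likelihood test in 1 model of 4 genotypes over all 8 libraries, with Benjamini-Hochberg adjustment over 23916 genes and calls at an adjusted p under 0.05. Fold changes are log2, and ± is a standard error derived from the fold change and the statistic of its test. Its spread comes from all 8 libraries. The genotype labels gave the groups. A floor of 3 counts per library was used for genes at 0 (0.0273 to 0.0716 CPM), and ratios of genes with 1 to 3 counts in Col-0 carry 95% intervals for counting error only, since reads without molecular identifiers are not independent molecules. Library totals ranged from 50123257 to 104501879 counts. Replicate numbers are not stated to pair libraries, and no block was used.

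Members of 39 gene lists (597 genes, 581 tested) and all lists were chosen with earlier results of these data known, so lists are described by counts and medians without a test. Genes named in full were up to 4 per list and direction with the largest absolute change among called genes with a mean of at least 50 counts and groups that did not overlap, and, from all other genes, the 10 largest changes in each direction. Other list members are named as examples, and some results are not reported here. Gene names came from the RefSeq annotation of TAIR10.1, matched to 99.2% of gene identifiers, and promoter letters from its genome sequence. Gene positions, and so the starts of the promoter windows, were those deposited with the counts. Alternatives were DESeq2 1.42.0, other scalings and filters, the 4 libraries alone, a replicate block and leaving out each library. Figures were drawn with matplotlib 3.10.9.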

Additional observations from a re-analysis of the deposited data

Results flagged for a closer look

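Of 60 genes that led their list or the changes outside the lists, 41 had an effect of *somi2* that differed between the *mips1* and the Col-0 background by the interaction test, and over all tested genes 62.1% did. The values given for 40 of these 41 genes are the effect in *mips1* minus the effect in Col-0, on the log2 scale.

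Genes of jasmonate, salicylic acid, glucosinolates and camalexin had a lower effect in *mips1*. For jasmonate these were the cyclase AOC3 (-2.99), the repressor JAZ7 (-6.00), the factor MYC2 (-0.94), the storage protein VSP1 (-1.86) and the chitinase PR3 (-3.86). For salicylic acid they were the hydroxylase DLO1 (-7.42) and PR1 (-6.81), and among the glucosinolate and camalexin genes CYP79F1 (-1.07) and CYP71A13 (-3.80). The anthocyanin genes UGT79B1 (-4.30) and TT8 (-1.31), the iron regulator BHLH39 (-2.31), the senescence factor NAP (-0.73), the clock gene LHY (-0.34) and the inhibitor KRP3 (-1.03) also had lower values.

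Genes of growth and photosynthesis had a higher effect in *mips1*. These were the cyclins CYCB2;1 (1.56) and CYCD3;1 (1.56), the helicase subunit MCM6 (1.09), the kinesin HINKEL (1.80), the stomatal peptide EPF2 (1.89), the antenna gene LHCB1.4 (2.31), the activase RCA (1.3) and the cellulose synthase CESA8 (0.55). The hormone genes IAA6 (2.09), YUC9 (3.38), ACO1 (0.81), GA20OX1 (2.01) and ARR6 (1.33), the cold factor CBF3 (1.12) and the cysteine oxidase PCO1 (1.84) were higher too.

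Outside the lists, AT5G01080 differed by -13.04, a fitted value that depends on the prior count since the gene had 0 to 1 counts in every library other than those of *somi2*. NEET (3.26), AGP3 (3.55), CER4 (2.47), AT3G21330 (3.14), AT2G21220 (1.16), AT5G02865 (2.79), AT1G11740 (4.43), ATGA2OX1 (2.94) and AT4G15710 (0.91) had a smaller or opposite fall in *mips1*. They were chosen by their fall against Col-0, the value that the interaction subtracts. AGP3, AT3G21330, AT5G02865, AT1G11740 and ATGA2OX1 were already low in *mips1*, with means of 0.2, 0.461, 0.698, 0.106 and 0.166 CPM. Their means in *somi2* were 0.245, 0.317, 0.685, 0.69 and 0.305 CPM. The others were higher in *mips1* than in *somi2*.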

How the results depend on the processing

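The scaling had the largest effect on the counts. With library size only, 11506 genes were up and 2109 down, 336 with a log2 fold change of -1 or less, and 3 lists in place of 8 had over 50% of members down. RAP2.12 (0.01), TCP3 (0.03), MYB28 (0.03) and CESA2 (0.05) then changed sign, as did the medians of auxin transport (0.04), ethylene signalling (0.09), the N-degron pathway (0.12) and abscisic acid and drought (0.02). Requiring at least 10 counts in every library left 1309 genes up by at least 1 of 21406 tested. With DESeq2, 4976 genes were up and 5491 down, and the interaction of AT4G22517 was 0.19. Leaving out 1 library at a time gave 4720 to 6236 genes up, 3924 to 6176 down, 1977 to 2169 up and 557 to 812 down by at least 1, values of -1.15 to -0.92 for BIG, and 17 to 19 lists mostly up and 5 to 10 mostly down, with 5 without either *somi2* library. Of 241 named genes, 2 to 16 lost their call in these fits and none changed sign. A replicate block gave 5939 genes up and 5425 down, with 1 of the named genes losing its call and BIG at -1.03. Same-numbered Col-0 and *somi2* libraries had a correlation of -0.156 between their deviations (-0.218 to 0.211 over all pairs of genotypes), and with the Col-0 numbers exchanged, chosen after seeing the data, 6025 genes were up and 5539 down.

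With 2 libraries per genotype the spread rests on 4 residual degrees of freedom shared by all genotypes, and the fits that leave 1 library in a group assume that it varies like the others. Low genes are limited by depth, since 3 counts correspond to 0.0353 to 0.0716 CPM in Col-0.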
